A study of Arabidopsis thaliana with 11 samples.

Results

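The transcriptome of wild-type Arabidopsis thaliana hypocotyls grown in the dark was measured on 6 single-colour NimbleGen arrays. These are the 6 arrays titled as wild type among the 11 arrays of the series, and all 37118 features of each were used, which represent 32627 loci. The plants were of the Columbia ecotype, and the hypocotyl is the stem between root and cotyledons. Seeds spent 3 days at 4 °C without light, received 6 h of white light at 20 °C and then stood in the dark for 4 days, so that the hypocotyls were 96 h old. Each array holds the RNA of a separate pool of about 300 hypocotyls, so the spread between arrays is a spread between pools and not between plants. The other 5 arrays, which the labels assign to the loss-of-function line atpme3-1 in the same ecotype and under the same growth regime, served only for a check of the labels.

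A seedling that germinates below the soil grows by elongation of hypocotyl cells that already exist, with few divisions. In darkness, repressors such as COP1 and the PIF transcription factors hold back the light programme, plastids stay at the etioplast stage with a store of protochlorophyllide, and growth is fed by the oil of the seed. Cell elongation requires water uptake, acidification and loosening of the wall, and the delivery of new cellulose and matrix polymers along cortical microtubules.

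A feature is a set of up to 4 probes against one gene model, and its signal is a linear intensity that the authors summarised with RMA. Values below are log2 of that intensity, so that a difference of 1 is a factor of 2. Signal levels of the 32627 loci ran from 6.64 to 15.58, with a median of 11.89. The brightest 25% of loci lay above 13.36 and the dimmest 25% below 9.08, and each list is read against these bands, which hold 25% of all loci each by construction. A locus with several features is represented by the brightest. Signal depends on the probes as well as on the transcript. In the 3602 loci with several features, the brightest and the dimmest feature of a locus were a median of 0.77 apart, and 17.7% of these loci had features 3 or more apart, whereas their SD between arrays had a median of 0.098. A position in a band therefore describes a signal and not a transcript amount, and the order of 2 genes within a band carries no weight. The deposited values used here come without detection calls, so a dim signal is not shown to be absence of the transcript.

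Before the levels are described, 2 facts about the arrays are needed. PME3, which encodes a pectin methylesterase of the cell wall, gave 13.69 to 13.86 (median 13.82) on the 6 wild-type arrays. On the 5 arrays labelled mutant it gave 14.39 to 14.44, above each wild-type array, which goes against a label of lost function as far as these probes report it. Where the probes lie relative to the insertion is not known from the sources used here. The arrays are called wild type below on the strength of their labels. Secondly, the 6 pools were not equally alike. By correlation over all features, each array was most similar to the array whose replicate number lies 3 away. By the median absolute difference of log2 values, array 1 was slightly closer to array 2 (0.106) than to array 4 (0.108). Arrays 3 and 6 had 7 loci that differed at least 2-fold, arrays 1 and 4 had 17 and arrays 2 and 5 had 29, while the remaining pairs had between 149 and 936. The labels state that each replicate was obtained separately. They name no batch, so whether a shared harvest or another shared step lies behind this was not tested. Over all features the 15 pairs of arrays correlated at 0.9852 to 0.9978, and the array medians lay between 3810 and 3909 on the linear scale.

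The strongest signals came from genes for the cytoskeleton, the vacuole, the wall, protection from hydrogen peroxide, protein synthesis, the S-adenosylmethionine cycle and the plastid. ACT2, an actin of vegetative tissue, was the brightest locus with 15.41 to 15.66 (median 15.61). DELTA-TIP, a water channel of the vacuolar membrane, followed among the nuclear genes at 15.43 to 15.59 (median 15.50). AGP4, an arabinogalactan protein, gave 15.28 to 15.47, and the extensin genes EXT6 and EXT10, which encode structural glycoproteins of the wall, gave 14.93 to 15.50 (median 15.34) and up to 15.50 (median 15.23). The ranges of these 5 genes over the arrays overlap one another.

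Enzymes that make and use S-adenosylmethionine, the methyl donor of the cell, supplied 4 of the 24 brightest loci. The synthases MAT3 and SAM1 gave 15.25 to 15.51 and 15.14 to 15.30. The decarboxylase SAMDC, which directs S-adenosylmethionine to polyamines, gave 15.12 to 15.32, and HOG1, the hydrolase that clears S-adenosylhomocysteine, gave 15.05 to 15.27. Of the enzymes that handle hydrogen peroxide, the catalase CAT3 gave 15.21 to 15.46, the peroxidase PRXR1 15.31 to 15.41 and the ascorbate peroxidase APX1 15.20 to 15.29. The chaperone HSC70-1 lay at 15.17 to 15.34, the translation factor eIF5A gene FBR12 at 15.11 to 15.33 and the beta-tubulin TUB2 at up to 15.31 (median 15.23).

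The 24 also held 5 loci of the plastid genome (ATCG00020, ATCG00270, ATCG00960, ATCG00280 and ATCG00950) with lowest to highest values between 15.02 and 15.71, and 4 nuclear loci without a symbol in the table used here (AT5G60390, AT4G29020, AT1G07920 and AT4G18670), between 15.03 and 15.42. Organelle genes were bright as a class. Of 87 plastid loci 86 lay in the brightest 25%, and of 107 mitochondrial loci 98 did, with medians of 14.55 and 14.11. On the 5 nuclear chromosomes the share was at most 25.2%.

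Among the 24 brightest loci the SD over the 6 arrays lay between 0.033 for APX1 and 0.20 for EXT6. The feature chosen had more weight. ACT2 has a second feature with a mean of 11.85, below the median of all loci, and the 6 features of APX1 had means from 11.45 to 15.25. When the mean of all features stood for a locus, 18 of the 24 stayed among the 24 brightest.

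**Figure D1:**
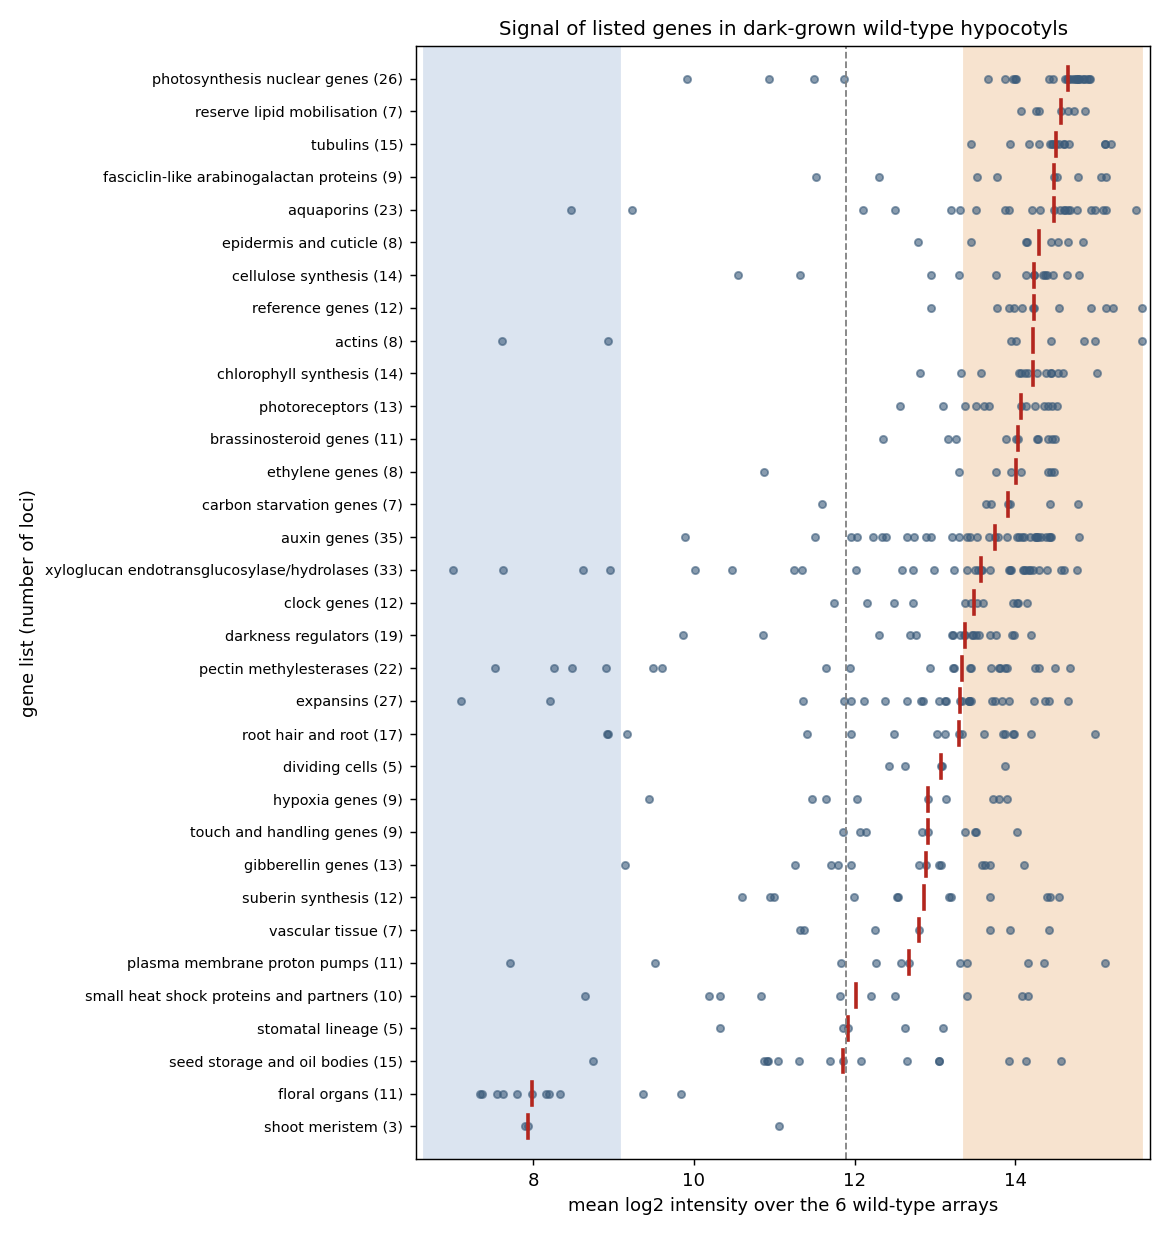
Mean log2 intensity over the 6 wild-type arrays (horizontal axis) for the members of 33 gene lists (vertical axis, number of loci in brackets). Each point is 1 locus, red bars are list medians, blue and orange shading mark the dimmest and the brightest 25% of all loci, and the dashed line is the median of all loci at 11.89. Tubulins and lipid mobilisation genes lie entirely in the brightest band, while 9 of 11 floral organ genes lie in the dimmest.

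The receptors of light were bright although the tissue had stood in darkness for 4 days. Of 13 photoreceptor genes 11 lay in the brightest 25% and 0 in the dimmest, and the list median was 14.07. PHYA encodes the phytochrome that builds up in etiolated seedlings, and it gave the highest signal of the list at 14.43 to 14.58 (median 14.53). The blue light receptor CRY1 gave 14.36 to 14.55 and the UV-B receptor UVR8 14.35 to 14.51. PHYB, the main phytochrome of light-grown plants, gave 14.04 to 14.17. PHYD and FKF1 were the dimmest, at 12.94 to 13.21 and at 11.62 to 13.26.

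FKF1, an F-box protein that senses blue light and acts with the clock, was the exception to the small spread of this family. Its values were 12.73, 11.62, 13.08, 13.00, 11.70 and 13.26 on arrays 1 to 6, so arrays 2 and 5 were the low ones. The SD was 0.72, against a list median of 0.063.

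Of 19 regulators of growth in darkness 11 lay in the brightest 25% and 0 in the dimmest, with a median of 13.38. Of 9 repressors of the light programme 6 were in the brightest 25%, and of 5 PIF genes 4. Of 5 genes that promote the light programme 1 was, namely HY5. These counts depend in part on members close to the band edge of 13.36. PIF4 and SPA2 had means just above it, at 13.37 and 13.38, and HFR1, of the promoting genes, had 13.31. DDB1A, a partner of the COP1 and DET1 complexes in marking proteins for destruction, was the brightest at 14.13 to 14.24. PIF3 gave 13.84 to 14.08, and PIL5, also called PIF1, which restrains chlorophyll synthesis and germination in the dark, gave 13.80 to 14.12. HY5, the bZIP factor that COP1 removes in darkness at the protein level, still had a signal of 13.37 to 13.90 (median 13.67).

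The dimmest member was PIF7, which acts in shade, with 10.03, 11.04, 8.39, 10.20, 10.98 and 8.55 on arrays 1 to 6. Arrays 2 and 5 were high and arrays 3 and 6 low, over a 6.29-fold range. Both features of PIF7 varied, with SDs of 1.16 and 0.94. LAF1, a MYB factor of phytochrome A signalling, was next at 10.34 to 11.66 and was also highest on arrays 2 and 5.

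Nuclear genes for photosynthesis were among the brightest lists in tissue that had not greened. Of 26 such genes 22 lay in the brightest 25%, 0 in the dimmest, and the median was 14.65. LHCB6, an antenna protein of photosystem II, gave 14.68 to 15.14 (median 14.98). RCA, the activase of Rubisco, gave 14.83 to 14.99, and PSAF, a subunit of photosystem I, gave 14.66 to 15.19. The 4 members outside that band were the antenna genes CAB2, LHCB2.2 and LHCB2.1 and the Rubisco small subunit gene RBCS1B, the last at 11.48 to 12.41. CAB2 gave 9.65, 11.50, 8.73, 9.39, 11.42 and 8.83 on arrays 1 to 6 and LHCB2.2 gave 10.84, 11.69, 10.09, 10.79, 11.95 and 10.23. In both genes arrays 2 and 5 were the highest and 3 and 6 the lowest. The near-identical CAB1 and CAB3 had medians of 13.98 and 14.95, and how far the probes tell these copies apart is not known here.

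Genes of chlorophyll synthesis, including the light-dependent step, gave bright signals. Of 14 genes 12 were in the brightest 25%, with a median of 14.21. PORA and PORB encode the reductases that hold protochlorophyllide until light arrives, and PORA is known to be abundant in etiolated seedlings. PORA gave 14.74 to 15.23 (median 15.05) and PORB 14.41 to 14.76. A second feature of PORA had a mean of 11.78. ALB1, a subunit of magnesium chelatase, gave 14.46 to 14.64. The dimmest were HEMA2, at 13.28 to 13.37, and FLU, which restrains the pathway in the dark, at 12.66 to 12.92. CH1, which makes chlorophyll b, had the largest SD of the list at 0.22.

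**Figure D2:**
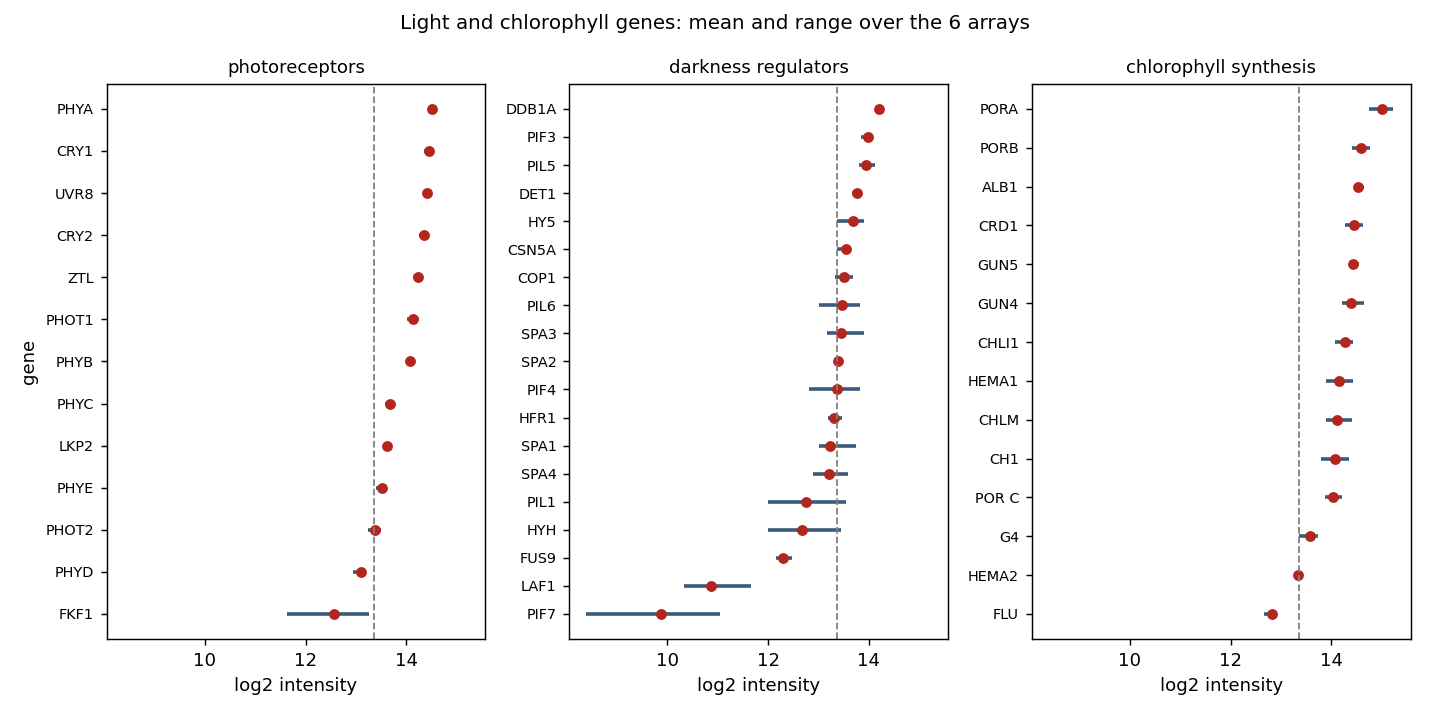
Log2 intensity (horizontal axis) of the photoreceptors, the darkness regulators and the chlorophyll synthesis genes. Points are means and bars run from the lowest to the highest of the 6 wild-type arrays, and the dashed line marks the lower edge of the brightest 25% at 13.36. Most bars are short, and those of FKF1, PIL1, HYH, LAF1 and PIF7 are the longest. PIF4 and PIL6, both lowest on arrays 3 and 6, span 1.03 and 0.82.

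Wall synthesis and the cytoskeleton that guides it were bright, with clear differences between members known from other organs. The tubulin list had 15 of 15 members in the brightest 25%, from TUA1 at 13.28 to 13.56 to TUB2. TUA2 gave up to 15.19 (median 15.13) and TUA6 gave 15.01 to 15.26. TUB3, which is nearly identical to TUB2 in its coding sequence, gave 14.03 to 14.40. Actins split: 6 of 8 were bright, among them ACT8 at 14.83 to 15.08 and ACT7 at 14.73 to 15.04, while the pollen actins ACT4 and ACT12 were in the dimmest 25% at 8.85 to 9.03 and 7.50 to 7.74.

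Of 14 genes of cellulose synthesis 10 were in the brightest 25%. COB, an anchored protein needed for oriented cellulose deposition, was the brightest at 14.60 to 14.89, followed by the synthase subunit CESA5 at 14.56 to 14.76 and by CSI1, which links the synthase complex to microtubules, at 14.40 to 14.52. CESA9 and CESA10 were the dimmest at 11.06 to 11.65 and 9.98 to 10.92, and CESA10 also had the largest SD of the list at 0.32. Primary wall members had 9 of 11 in the brightest 25% and secondary wall members 1 of 3.

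Proteins that loosen the wall showed a wide span within each family. Expansins had 12 of 27 members in the brightest 25% and 2 in the dimmest. EXPA8, EXPA11 and EXPA9 led at 14.58 to 14.77, 14.37 to 14.46 and 13.86 to 14.59, and the beta-expansins EXPB2 and EXPB4 were the dimmest at 8.09 to 8.38 and 7.05 to 7.15. EXPA12 was the most variable, with 12.40, 10.72, 12.75, 12.23, 10.41 and 12.68 on arrays 1 to 6 and thus low on arrays 2 and 5.

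Xyloglucan endotransglucosylase/hydrolases cut and rejoin the xyloglucan that ties cellulose together. Of 33 genes 20 lay in the brightest 25% and 4 in the dimmest. XTH4, XTH14 and XTH15 were the brightest at 14.45 to 14.95, 14.45 to 14.68 and 14.46 to 14.73. XTH29 and XTH1 were the dimmest at 7.57 to 7.72 and 6.97 to 7.06, close to the bottom of the scale. XTH6 spanned a 10.5-fold range, with 10.04, 11.67, 8.35, 10.25, 11.48 and 8.28 on arrays 1 to 6, high on 2 and 5 and low on 3 and 6.

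Of 22 pectin methylesterases 11 were in the brightest 25% and 4 in the dimmest. AT3G49220 gave 14.54 to 14.81, PME44 14.42 to 14.60 and PMEPCRA 14.22 to 14.33, while PME3 itself lay in the brightest band without being one of the leading members. The dimmest were PPME1, a pollen pectin methylesterase, at 8.15 to 8.35 and AT5G07420 at 7.42 to 7.63. AT2G47550 had the largest SD of the list, 0.44. Fasciclin-like arabinogalactan proteins had 7 of 9 members in the brightest 25%, with FLA2 at 15.04 to 15.21, FLA8 at 14.95 to 15.17 and FLA13 at 14.66 to 14.91. FLA7 and FLA10 were the dimmest at 11.93 to 12.79 and 11.26 to 11.76.

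Most genes for water channels were bright, while the proton pump that drives uptake was represented by a few bright genes. Of 23 aquaporins 17 were in the brightest 25%, including 11 of 13 of the plasma membrane. Next to DELTA-TIP, the plasma membrane channel PIP2;4 gave 15.04 to 15.23 and the tonoplast channel GAMMA-TIP 15.07 to 15.16. The dimmest were TIP5;1 and TIP1;3, both known from pollen, at 9.09 to 9.45 and 8.38 to 8.61. BETA-TIP, a channel of seed storage vacuoles, had the largest SD at 0.48. Among 11 plasma membrane proton pumps 4 were in the brightest 25%. HA2 gave 15.01 to 15.20 and HA1 14.05 to 14.58, whereas HA9 gave 9.42 to 9.62 and HA6 7.54 to 7.88. HA7 varied most, with 13.52 and 13.43 on arrays 2 and 5 and 12.03 to 12.50 on the others.

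The lists of hormone genes differed in their share of bright members, but also in size and in the roles they cover. In the auxin list 22 of 35 genes lay in the brightest 25%, and these included 14 of 14 receptors, response factors and carriers, 8 of 15 Aux/IAA repressors and 0 of 6 SAUR growth genes. The influx carrier AUX1 gave 14.66 to 14.94, and the receptors TIR1 and AFB3 gave 14.39 to 14.55 and 14.39 to 14.53. SAUR22 gave 11.15 to 11.86 and IAA5 9.43 to 10.39, the dimmest of the list. The SAUR genes in the list are a tandem cluster of near copies, so their separate signals are uncertain. IAA29 had the largest SD, 0.42.

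Of 13 gibberellin genes 4 were in the brightest 25%, with a list median of 12.89. This share is close to the 29.5% of all protein-coding loci. The DELLA repressor RGA1 was the brightest at 14.06 to 14.16, before the synthesis gene GA3OX1 at 13.42 to 13.80 and the receptor GID1B at 13.50 to 13.72. GID1C, a second receptor, and GA1, which opens the pathway, were the dimmest at 10.66 to 11.60 and 8.91 to 9.43. Brassinosteroid genes had 8 of 11 members in the brightest 25%. The synthesis gene CPD gave 14.41 to 14.65, the kinase BIN2 14.36 to 14.55 and the transcription factor BES1 14.23 to 14.58. DET2, whose loss gives light-type growth in darkness, gave 13.07 to 13.25, and BZR1 was the dimmest at 12.22 to 12.52.

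Ethylene, which acts on the apical hook, had 6 of 8 listed genes in the brightest 25%. EIN2 and EIN3, the central signalling genes, gave 14.38 to 14.60 and 14.36 to 14.54, and the kinase CTR1 gave 14.24 to 14.62. The receptor ETR1 gave 13.19 to 13.37 and the ACC oxidase gene ACO1 10.65 to 11.04. A second ACC oxidase gene, EFE, had the largest SD of the list at 0.33, with 13.42 and 13.26 on arrays 3 and 6 against 13.95 to 13.99 on the others.

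Genes for the use of reserve oil and genes known to answer to lack of carbon were both bright. Of 7 genes of lipid mobilisation 7 were in the brightest 25%. ICL, the isocitrate lyase of the glyoxylate cycle, gave 14.75 to 14.99, PCK1, which leads from there to sugar, gave 14.45 to 14.93, and MFP2 of beta-oxidation gave 14.59 to 14.80. The lowest members were the malate synthase gene MLS at 14.04 to 14.39 and the lipase gene SDP1 at 13.96 to 14.15. AIM1, another beta-oxidation enzyme, was one of the steadiest loci, at 14.55 to 14.57.

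Genes known to respond to darkness and sugar shortage had 6 of 7 members in the brightest 25%, led by DIN10 at 14.70 to 14.85 and SEN1 at 14.26 to 14.53. DIN2 was the dimmest at 11.22 to 12.03. ASN1, the dark-induced asparagine synthetase, gave 14.36, 14.13, 12.72, 14.27, 14.10 and 12.61 on arrays 1 to 6. Arrays 3 and 6 lay well below the other 4. All 3 features of ASN1 showed a large spread, with SDs of 0.81 to 0.91 at means from 9.31 to 13.70.

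Genes of the maturing seed were spread over the scale. Of 15 genes of storage and oil bodies 3 were in the brightest 25% and 1 in the dimmest. The cruciferin gene CRU3 gave 14.25 to 14.73, its relative CRA1 13.76 to 14.36 and the albumin gene SESA5 13.58 to 14.20, while SESA1 gave 8.33 to 9.02. The LEA gene EM1 varied most, with 11.27, 10.41, 11.74, 11.03, 10.16 and 11.66 on arrays 1 to 6, lowest on 2 and 5.

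Clock genes had 8 of 12 members in the brightest 25%, led by ELF3 at 13.99 to 14.22, PRR5 at 13.84 to 14.18 and GI at 13.85 to 14.15. RVE8 was the dimmest at 11.30 to 12.47 and ELF4 gave 11.58 to 12.81. Genes of low oxygen had 3 of 9 in the brightest 25%: LBD41 at 13.70 to 14.13, AT5G15120 at 13.62 to 13.92 and SUS1 at 13.51 to 13.82. ERF71 was the dimmest at 9.13 to 9.79, and ADH1, the alcohol dehydrogenase that rises strongly without oxygen, gave 12.83 to 12.98. Of 9 genes known to respond within minutes to touch or handling 4 were in the brightest 25%, with TCH3 at 13.91 to 14.18, CBF2 at 13.20 to 13.69 and TCH4 at 13.29 to 13.61, while CBF1 had the largest SD at 0.43.

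The markers of cell types were set against the label of the tissue. Epidermis and cuticle genes had 7 of 8 members in the brightest 25%. KCS10, which elongates cuticle lipids, gave 14.74 to 14.94, the lipid transfer protein gene LP1 14.48 to 14.83 and the epidermal factor PDF2 14.47 to 14.59. The member outside the brightest 25% was GL2, at 12.64 to 12.90. Vascular genes had 3 of 7, with the phloem sucrose carrier SUC2 at 14.29 to 14.55 and the xylem proteases XCP1 and XCP2 at 13.80 to 14.08 and 13.51 to 13.79. Other markers of the same tissues were not bright. The xylem genes VND7 and NAC101 gave 11.25 to 11.51 and 11.23 to 11.38, below the median of all loci at 11.89. The phloem gene APL gave 11.94 to 12.44. Stomatal lineage genes had 0 of 5, from SPCH at 13.03 to 13.14 down to MUTE at 10.07 to 10.45. Dividing cell genes had 1 of 5, the cytokinesis gene SYP111 at 13.78 to 13.94, while CYCB1;1 and CDKB1;1 gave 12.44 to 12.79 and 12.20 to 12.61.

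The floral list and most of the shoot meristem list were dim. Floral organ genes had 9 of 11 members in the dimmest 25%, with STK at 7.22 to 7.44 and SEP1 at 7.29 to 7.44, and the exceptions were SHP1 at 9.12 to 9.67 and SEP3 at 8.88 to 10.70. The second feature of SEP3 had a mean of 7.01. Of 3 shoot meristem genes WUS and CLV3 were in the dimmest 25%, at 7.67 to 8.07 and 7.74 to 8.07, and STM gave 10.69 to 11.23.

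Root genes were spread over the scale in pools that the labels name as hypocotyls. Of 17 genes 7 were in the brightest 25% and 2 in the dimmest. Of 7 root hair genes 2 were in the brightest 25%, near the share of all loci. Of 10 genes of root uptake, endodermis and meristem 5 were. CASP1, which marks the Casparian strip of the endodermis, gave 14.90 to 15.13 (median 14.97), the nitrate carrier NRT2:1 gave 14.09 to 14.37 and the factor SCR, which also acts in the stem endodermis, 13.91 to 14.08. The dimmest were the root stem cell genes WOX5, at 8.71 to 9.26, and PLT2, at 8.34 to 9.65. The mean of the root list ranged from -0.23 to 0.33 around its average over the 6 arrays. Whether the pools held root tissue was not tested.

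The spread among the pools was small for most loci and followed the signal. The median SD over the 6 arrays was 0.12, a factor of 1.09. It was 0.065 in the dimmest 5% of loci, 0.24 around a signal of 10 and 0.077 in the brightest 5%. An SD of at least 0.5 was reached by 772 loci, 2.37% of all, and of the 16314 loci in the upper 50% of signal by 132, or 0.809%. The 12 commonly used reference genes had 11 members in the brightest 25% and SDs with a median of 0.070. That is close to the value for other loci of like signal. The median SD was 0.076 in the 5% of loci around a signal of 14.08 and 0.077 in the brightest 5%. PP2AA3, a subunit of protein phosphatase 2A, gave 14.17 to 14.27, YLS8 14.16 to 14.28, AT2G28390 14.03 to 14.14 and PEX4 13.82 to 14.00. UBQ10, the polyubiquitin gene, gave 15.04 to 15.20, GAPC1 of glycolysis 14.83 to 15.13, EIF4A1 14.45 to 14.58, UBQ5 13.90 to 14.07, UBC9 13.66 to 13.86 and AT4G34270 12.84 to 13.03. AT5G60390 was the least steady of the list, with an SD of 0.14. The 6 smallest SDs in the upper 50% of signal belonged to the syntaxin gene SYP71, the factor gene WRKY2, CHR4, GDPD5, AIM1 and AT3G17940, between 0.0061 and 0.010.

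**Figure D3:**
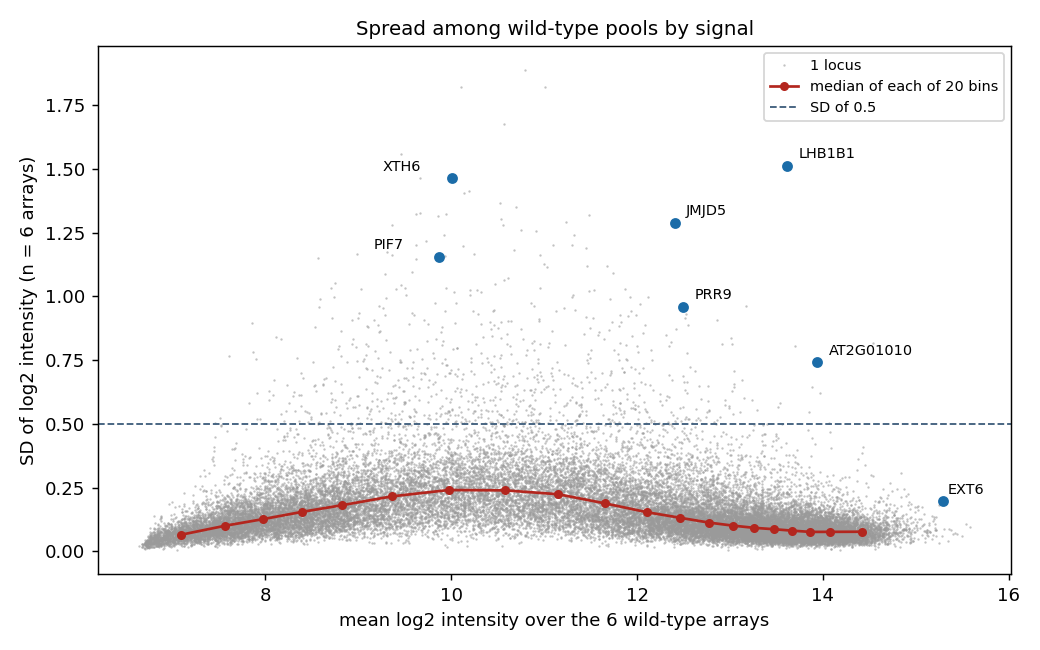
SD of log2 intensity over the 6 wild-type arrays (vertical axis) against mean log2 intensity (horizontal axis). Each grey point is 1 of 32627 loci, the red line joins the medians of 20 bins of equal size, the dashed line marks an SD of 0.5 and blue points are named genes. The spread is largest at middle signal, and LHB1B1 and JMJD5 stand far above loci of like signal.

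The loci that differed between pools did so in a few recurring arrangements of arrays. Among the 772 loci the 2 highest arrays were 2 and 5 in 558, 3 and 6 in 75 and 1 and 4 in 34, which makes 86.4% of them. The 2 lowest arrays were 3 and 6 in 445, 2 and 5 in 100 and 1 and 4 in 71. Both counts cover only these 772 loci, chosen for their spread, and were not made over all 32627 loci. Over all features, deviations from the mean of each feature correlated at 0.69 between arrays 3 and 6 and 0.58 between 2 and 5. Between 1 and 4 the value was 0.18, and in the remaining pairs it was at most 0.039. The first principal component of the 6 arrays held 58.2% of the variance, with arrays 2 and 5 at one end (scores 36.9 and 25.8) and arrays 3 and 6 at the other (-27.7 and -33.3). The second held 21.6% and had array 1 at one end (26.0) and array 5 at the other (-20.4).

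The largest SD in the upper 50% of signal was that of LHB1B1, an antenna protein gene of photosystem II, at 14.30, 14.93, 11.77, 14.09, 14.95 and 11.66 on arrays 1 to 6. Arrays 3 and 6 were lower than each of the other 4, over a 9.80-fold range. LHB1B2, its neighbour and close copy, named after its values were seen, was likewise lowest on arrays 3 and 6, at 15.02, 15.28, 13.62, 14.81, 15.13 and 13.41. The second largest was JMJD5, a jumonji-domain protein gene tied to the clock, at 13.03, 10.87, 13.52, 12.99, 10.66 and 13.39. Here arrays 2 and 5 were the low ones, over a 7.23-fold range.

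The next were high on arrays 2 and 5. EXPA17, an expansin, gave 11.86, 13.34, 11.16, 11.79, 13.37 and 11.22, and the clock gene PRR9, whose transcript peaks in the morning in plants under day and night cycles, gave 12.06, 13.81, 11.75, 12.03, 13.63 and 11.70 on arrays 1 to 6. BGLU35, a beta-glucosidase gene, gave 13.24 and 13.22 on arrays 2 and 5 and 11.12 to 11.74 on the others. Loci with no symbol, AT2G47540, AT1G14550, AT5G48490, AT3G57020 and AT1G05650, showed the same high pair. The remaining members of the 12 widest, ABCG6 and GPAT5, belong to suberin synthesis and are described below.

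Over all signal levels, 2 neighbouring loci that share the symbol TPS-CIN, a cineole synthase, headed the list, and they were named after their values were seen. AT3G25830 gave 11.58, 12.37, 8.35, 11.67, 12.37 and 8.44 on arrays 1 to 6, a 16.2-fold range, and AT3G25820 spanned 14.8-fold with the same arrays low. The 2 genes are near-identical copies, so their signals are not independent.

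Suberin is the lipid polymer that seals root endodermis and wounded tissue, and its synthesis genes were put together as a list after the widest loci had been seen, so their spread is a description of that choice. Of 12 genes 6 had an SD of at least 0.5. The transporter ABCG6 gave 13.65, 14.06, 12.05, 13.43, 13.97 and 11.89, and the acyltransferase GPAT5 12.27, 12.95, 10.89, 12.16, 12.84 and 10.83 on arrays 1 to 6. CYP86B1, which oxidises very long fatty acids, had the largest SD of the list at 1.16, with 9.37 and 9.62 on arrays 3 and 6 and 11.35 to 11.97 on the others. Relative to its average over the 6 arrays, the list mean lay at 0.48 on both arrays 2 and 5 and at -0.61 and -0.65 on arrays 3 and 6. The elongase genes KCS20 and KCS2 and the reductase gene FAR1, all bright, stayed within 14.40 to 14.70, 14.35 to 14.42 and 14.26 to 14.57.

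Other lists moved with the same pairs of arrays. The root list lay 0.30 and 0.33 above its average on arrays 2 and 5. Its most variable member was SHV2, needed for root hair growth, with 13.37 and 13.39 on these arrays and 11.95 to 12.17 on the others, and RSL4, a master factor of root hair growth, had 12.11 and 12.12 against 10.99 to 11.19. The list of small heat shock proteins and partners went the other way, at -0.43 and -0.53 on arrays 2 and 5 and 0.19 to 0.32 on the others. HSP17.6II gave 12.65, 10.75, 12.32, 12.53, 10.55 and 12.11 on arrays 1 to 6. The brightest members of that list were HSP70, HSP101 and HSFA2, at 13.90 to 14.48, 13.92 to 14.17 and 12.70 to 13.87, and HSP21 was the dimmest at 8.33 to 9.01. The seed list lay at -0.26 and -0.33 on arrays 2 and 5 and at 0.12 to 0.18 on the others.

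**Figure D4:**
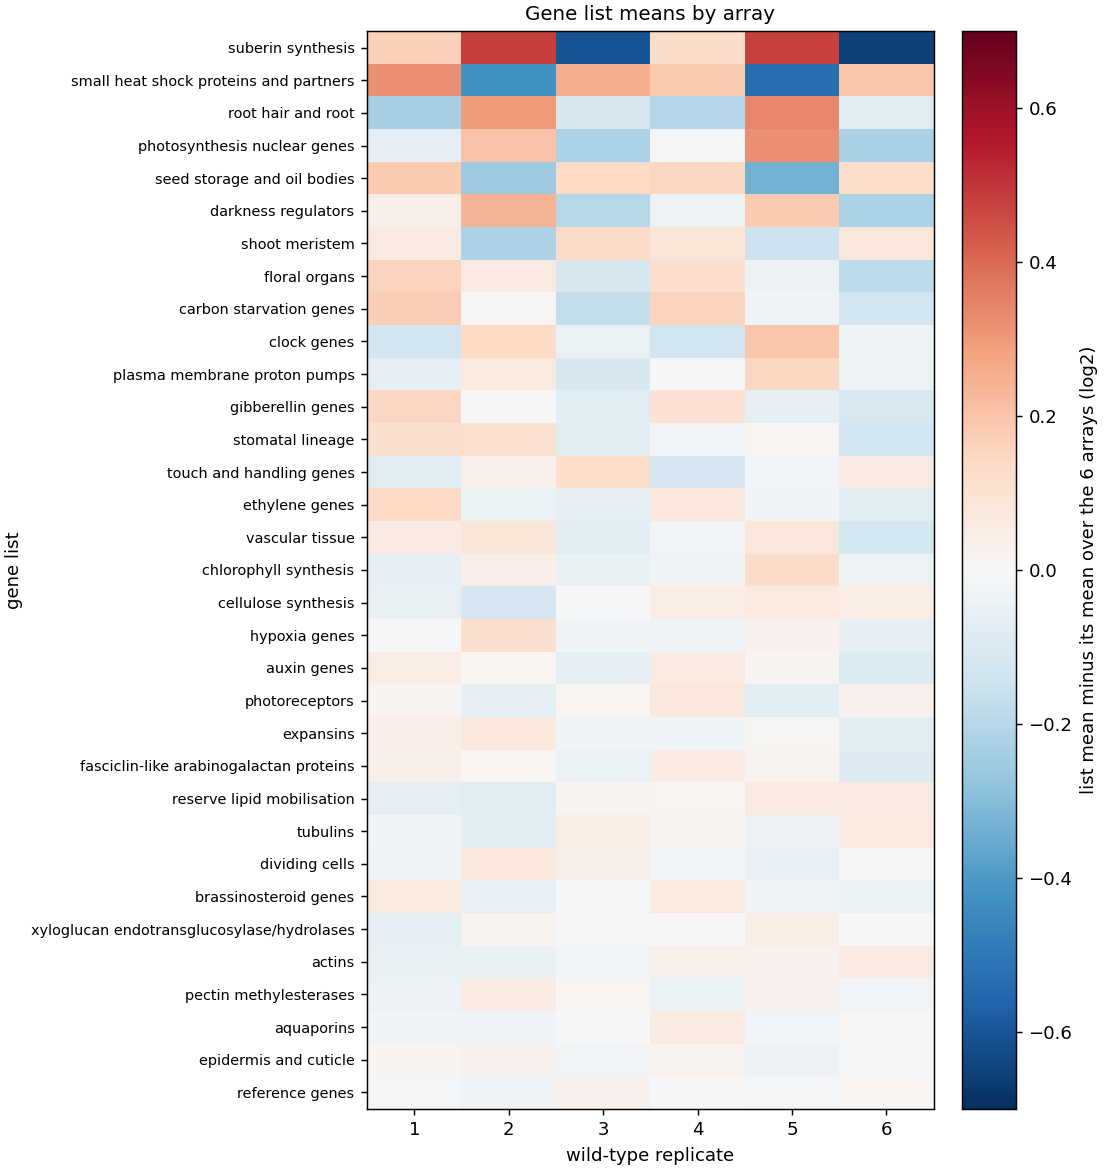
Mean of each gene list on each wild-type array minus the mean of that list over the 6 arrays, in log2 units (colour), for 33 lists (vertical axis, widest range at the top) and replicates 1 to 6 (horizontal axis). Columns 2 and 5 resemble each other, as do 3 and 6, and the reference genes at the bottom have a range of 0.058.

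Of the 12 clock genes 3 had an SD of at least 0.5, namely PRR9, ELF4 and RVE8. The evening gene ELF4 was highest on arrays 3 and 6, at 12.81 and 12.78, and RVE8 on arrays 2 and 5, at 12.32 and 12.47. The brightest members of the list, ELF3, PRR5 and GI, had SDs of 0.090, 0.13 and 0.10 and were highest on array 4, 6 and 4. The morning genes CCA1 and LHY, chosen after their values were seen, gave 13.74 and 13.80, and 13.87 and 13.84, on arrays 2 and 5. On the other 4 arrays they lay at 13.05 to 13.34 and 13.31 to 13.43. The sample labels used here give no hour of collection.

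A few genes were highest on arrays 1 and 4, and of these HB-2 and PIL1 were chosen after their values were seen. The homeobox gene HB-2, which rises in shade, gave 13.29 and 12.99 there and 11.34 to 11.75 on the others. PIL1, another early shade gene, gave 13.54, 12.01, 12.87, 13.32, 12.00 and 12.82 on arrays 1 to 6, and the auxin repressor gene IAA29 gave 12.70, 11.72, 12.29, 12.69, 11.78 and 12.18. This was not shared by all genes of shade or auxin: PIF7 was highest on arrays 2 and 5, and IAA5 on array 2.

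A different arrangement appeared in ribosomal RNA. AT2G01010, annotated as ribosomal RNA, gave 14.56, 14.53, 14.71, 13.35, 13.49 and 13.00 on arrays 1 to 6, and AT2G01020, the second such locus, 13.38, 13.59, 13.76, 12.58, 12.54 and 12.27. Arrays 1 to 3 lay above arrays 4 to 6 in both, with no overlap. The third principal component, with 14.0% of the variance, also had arrays 1 to 3 on one side (-4.61 to -15.3) and arrays 4 to 6 on the other (2.47 to 22.1). The labels name no processing step that separates these arrays, and its part in the values was not tested.

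**Figure D5:**
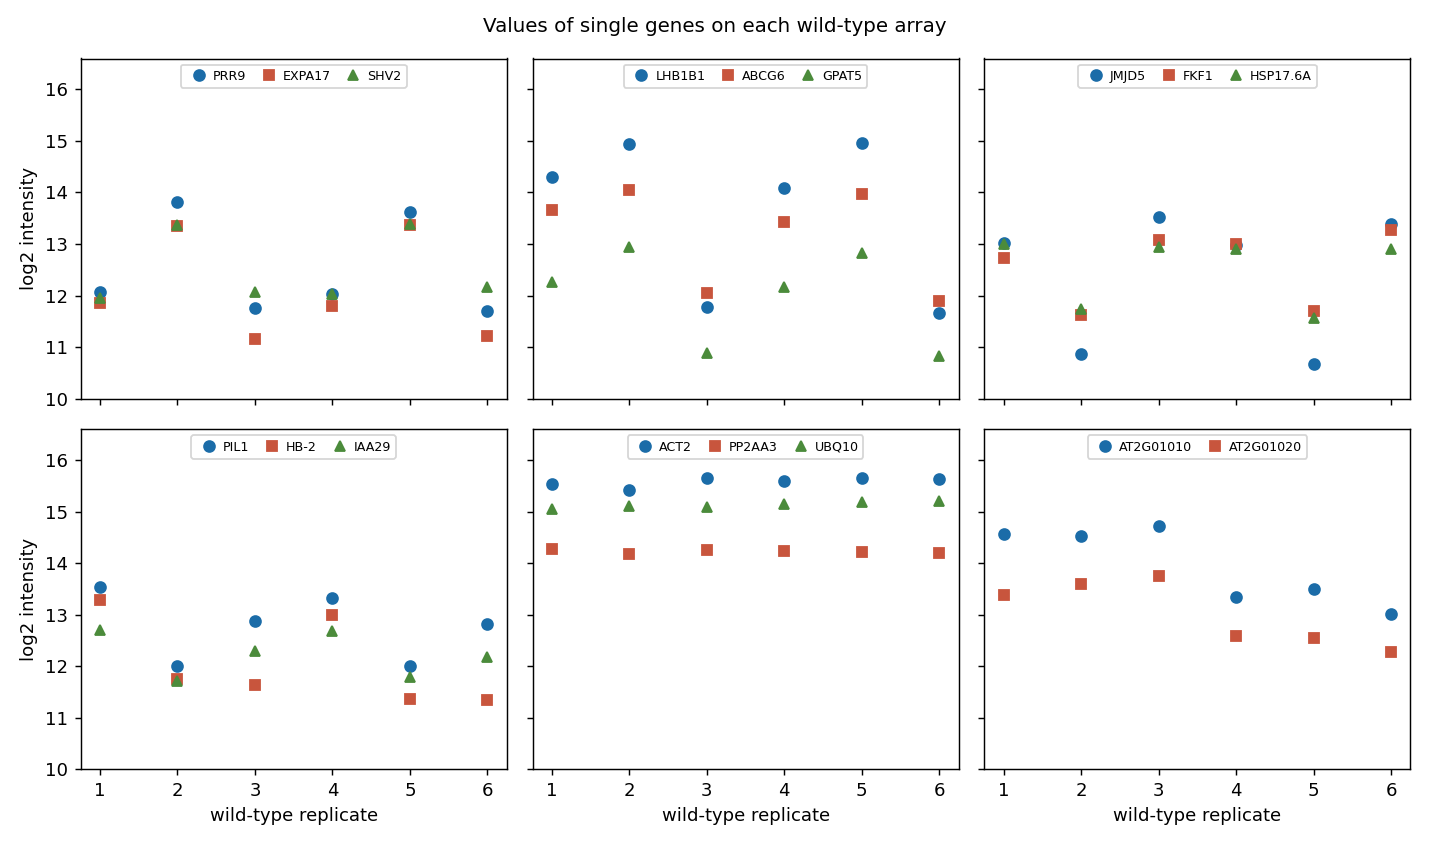
Log2 intensity (vertical axis) of 17 single genes on wild-type replicates 1 to 6 (horizontal axis), 2 or 3 genes in each panel. The first panel holds genes high on arrays 2 and 5, the second genes low on 3 and 6, the third genes low on 2 and 5, the fourth genes high on 1 and 4, the fifth reference genes, which stay within 0.25 log2 units, and the last the ribosomal RNA loci, which are lower on arrays 4 to 6.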

How the data were processed

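Total RNA of 6 wild-type pools was labelled with Cy3 and hybridised to NimbleGen arrays, per the labels. The authors deposited linear intensity values, 1 per feature and array, summarised with RMA per the submitters' processing notes. The sources used here give no version, settings, genome build or annotation. RMA as generally run makes array distributions equal, so a change in total RNA is not visible. The deposited array files also give the number of probes behind each feature: 26409 features have 4. These intensities and those of the value table differed by 0 at most. Columns of other samples numbered 0. The deposited standard errors were not used, because their scale is not stated.

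Intensities were log2-transformed in Python 3.11.15 with pandas 2.3.3 and numpy 2.4.6 and plotted with matplotlib 3.10.9, with no filter or further normalization. The feature with the highest wild-type mean stood for its locus, and symbols came from a RefSeq table of TAIR10.1, which holds 31993 of the loci. Lowest, median, highest, mean and SD were computed over the 6 arrays. With 1 group there was nothing to test, and the number of arrays limits the precision. Calculations were tested on simulated data.

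The 32 gene lists (438 entries), a suberin list of 12 and the families by symbol prefix were chosen with earlier results of these data known. Named were PME3, the 24 brightest loci, the 12 widest and 6 tightest in the upper 50% of signal, the reference genes and, per list, the 3 brightest, 2 dimmest and the most variable member. Any other gene was chosen after its values were seen. One further gene and one further symbol family are not reported here. Alternatives were other choices of feature, medians, median centring, a second quantile normalization, the coefficient of variation and arrays left out.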

Additional observations from a re-analysis of the deposited data

Results flagged for a closer look

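In 5 of 258 sets of 6 wild-type values examined (1.94%), a single array stood apart from the others by more than Dixon's 95% critical value for the gap over the range. Chance marks about 1 in 20 such sets if the 6 values are independent. The arrays here resembled each other in pairs, so that rate is not a firm measure for the share found. ATCG00270, a plastid locus, gave 15.57 on array 5 against 15.39 to 15.43 on the others. HOG1, the S-adenosylhomocysteine hydrolase gene, gave 15.05 on array 4 against 15.20 to 15.27. This held for its brightest feature only. The dimmer features of HOG1 gave 14.30 and 14.21 on array 4, within ranges of 14.19 to 14.48 and 14.19 to 14.44. The auxin receptor gene AFB3 gave 14.53 on array 2 against 14.39 to 14.44, and EIF4A1, a translation factor and reference gene, gave 14.45 on array 2 against 14.56 to 14.58. TTG1, which acts in epidermal patterning, gave 13.56 on array 2 against 13.40 to 13.45. A TTG1 feature with a mean of 9.49 was also highest on array 2, and one with a mean of 10.72 was highest on array 5. Each feature of EIF4A1 was lowest on array 2. The gaps are small beside the spread of the most variable genes. Array 2 was the one apart in 3 of these sets.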

How the results depend on the processing

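No paired analysis was possible because the values describe 1 group and come from no test. Of 668 counts of list and family members, bright loci and wide loci under alternative settings, 660 stayed close to the reported value and 8 moved. Closeness was judged loosely by the ratio of the counts, by which 1008 wide loci in place of 772 still counted as close. With the mean of all features, 2 CHX genes in place of 1 were in the brightest 25%, and 2 RPL genes in place of 1 were in the dimmest. With arrays 2 and 5 left out, chosen after seeing the data, 307 loci had an SD of at least 0.5 in place of 772, and 2 of the 12 widest were shared. With arrays 3 and 6 left out 603 loci had that SD and 5 of the 12 were shared, and with arrays 1 and 4 left out 1008 had it. In the upper 50% of signal 132 loci had it. With each array left out in turn the number was 636 to 900, and 5 to 11 of the 12 widest were shared, with 5 when either array 2 or array 5 was left out. With arrays 3 numbers apart averaged it was 875. The mean levels of 225 named loci moved by under 1 SD with median centring and with a second quantile normalization. The planned count of promoter motifs was not run, since no promoter sequences were used here. Signal close to the bottom of the scale cannot be told from background without detection calls.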

Other observations

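Families were also formed from the letters that open a symbol, for 59 prefixes with at least 20 loci. The lowest medians were those of small secreted peptides, microRNA genes and ion exchangers. LCR genes, which encode defensin-like peptides, had 76 of 81 members in the dimmest 25% of loci, and SCRL genes, of a related peptide family, 24 of 28. Of 146 microRNA loci 114 were in the dimmest 25%. RALFL genes, which encode peptides that alkalinise the apoplast, had 20 of 32 there, and CHX genes, which encode cation/proton exchangers, 13 of 23. A few members stood apart from their families. LCR69 gave 14.76 to 14.99 over the 6 arrays, MIR398c 13.47 to 13.57, RALFL22 14.50 to 14.62, RALFL34 14.21 to 14.43, RALFL32 13.89 to 14.14, RALFL33 13.60 to 13.87 and CHX17 13.45 to 13.70.

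The highest medians were those of EIF translation factors, with 16 of 21 members in the brightest 25%, RPL and RPS ribosomal protein genes, with 15 of 22 and 15 of 24, KCS fatty acid elongases, with 14 of 21, and AGP arabinogalactan proteins, with 17 of 30. Here the exceptions were dim. KCS18, the elongase of seed oil also known as FAE1, gave 7.55 to 8.10, KCS7 8.44 to 8.89 and KCS17 8.84 to 9.13. AGP23 gave 7.54 to 7.72 and AGP40 7.94 to 9.10. RPL12-B gave 8.71 to 8.92 and eIF6B 8.64 to 9.30.

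By the type of locus in the gene table, 29.5% of 26478 protein-coding loci were in the brightest 25% and 19.7% in the dimmest. Of 3858 pseudogenes 47.1% were in the dimmest 25%, and of 917 transcribed pseudogenes 61.3%. Bright loci had longer genes, with a median length of 2770 bp, against 2053 bp in the middle of the scale and 1260 bp among dim loci. These lengths cover all types of locus together. Lengths within protein-coding loci alone were not compared.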
